A study of Homo sapiens with 3 samples.

Results

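The etoposide targets TOP2A and TOP2B, the other topoisomerases TOP1, TOP3A and TOP3B, the phosphodiesterases TDP1 and TDP2, and the drug efflux pumps ABCB1, ABCC1 and ABCG2 were compared between MCF10A cells with and without an shRNA against obscurin, after etoposide. Array features were taken where the platform annotation gives exactly 1 symbol and that symbol is one of these 10 genes. This gave 18 of 45220 features, and the 17 with a value on at least 2 of 3 arrays were kept. They stand for 9 genes: 8 genes have 1 feature each, and ABCB1 has 9 kept features of 10. No feature carried ABCC1 as its only symbol, so ABCC1 could not be compared. Of the kept features, 12 had a value on all 3 arrays and 5 on 2 arrays. Just inside that limit lay the features of TOP2A, TOP3A and TDP1 and a pair of ABCB1 features; the 1 feature outside it, of ABCB1, had a value on array 3 only, a relative log2 ratio of 0.04.

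MCF10A is an immortalised, non-tumorigenic line of breast epithelial cells. One culture carried a stably transfected obscurin shRNA (shRNA-2) and the other a scrambled control shRNA (control shRNA-1), both held under puromycin at 1.5 ug/mL, and both received 150 uM etoposide for 48 hours, from 70% confluency. Obscurin is a giant cytoskeletal signalling protein. On each of 3 two-colour arrays, called independent replicates by the labels, cDNA of the obscurin shRNA cells (Cy5) was hybridised with that of the control shRNA cells (Cy3). Every sample had etoposide, so the data hold the effect of the shRNA in drug-treated cells and no effect of the drug. Each arm used 1 shRNA and the dyes were not swapped, so shRNA, off-target and dye effects cannot be told apart. The labels do not say how many clones each line holds.

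Topoisomerases relieve the twist in DNA by cutting and rejoining it. Type II enzymes pass a duplex through a transient break in both strands, staying bound to the DNA ends through a tyrosine; etoposide traps this intermediate, so that the amount of enzyme, the removal of trapped protein and the export of the drug are known to bear on how strongly cells respond. TOP2A is made mostly in dividing cells and peaks in G2 and mitosis, whereas TOP2B is also made in cells that do not divide.

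The start regions of the etoposide targets TOP2A and TOP2B are shown, with every CCAAT box, the motif bound by NF-Y, in capitals. CCAAT was sought on either strand, so it is ATTGG as printed, and matches cannot overlap. The sequences are those of RefSeq, from 250 bases before to 50 bases after the start, 5′ to 3′ on the strand of the gene, in GRCh38.p14; 9 of the 10 genes matched. TOP2A lies at chr17:40417847-40418146 and the TOP2B start at chr3:25664858-25665157, both on the minus strand.
TOP2A: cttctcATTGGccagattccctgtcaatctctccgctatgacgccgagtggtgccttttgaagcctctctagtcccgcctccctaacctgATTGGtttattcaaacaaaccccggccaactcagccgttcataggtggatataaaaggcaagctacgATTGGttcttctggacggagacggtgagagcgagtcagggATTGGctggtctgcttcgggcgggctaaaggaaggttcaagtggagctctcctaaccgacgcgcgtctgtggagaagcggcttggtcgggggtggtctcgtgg
TOP2B: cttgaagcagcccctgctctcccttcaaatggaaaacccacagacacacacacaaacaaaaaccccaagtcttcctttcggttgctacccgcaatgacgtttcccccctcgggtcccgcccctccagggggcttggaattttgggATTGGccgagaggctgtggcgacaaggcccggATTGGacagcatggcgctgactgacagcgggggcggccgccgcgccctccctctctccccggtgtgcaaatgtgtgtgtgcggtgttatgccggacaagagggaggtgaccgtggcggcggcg
TOP2A held 4 boxes in this window, beginning 244, 160, 93 and 53 bases before the start, and TOP2B held 2, beginning 105 and 73 bases before it. The other TOP2B start in the table, at chr3:25664323-25664622, held 0. Of 35116 RefSeq windows of 300 bases, 34.6% held at least 1 box, 10.6% at least 2 and 0.94% at least 4. A match describes the letters of this window and no binding was measured. Whether the boxes bear on the array values of either gene was not tested.

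The deposited value of a feature is the log2 ratio of both channels. Neither the centring nor the direction of the ratio is stated; a positive value likely means more signal from the obscurin shRNA cells, because their dye, Cy5, is that of channel 1. The 3 arrays had medians of 1.49, 1.28 and 1.39 over all features, so a relative log2 ratio, the value minus its array's median, is used throughout; a relative value of 0 is the middle feature and not a ratio of 1. Rank correlations between arrays over features, which are no independent replicates, were 0.342 (arrays 1 and 2), 0.267 (1 and 3) and 0.532 (2 and 3), and the median SD between arrays was 0.98 over the 23308 features with 3 values and 0.91 over the 12 such features of these genes. Features of the 236 transcripts with at least 10 features each resembled each other more when every value was taken 170 features earlier, which is 1 row of the array, in 10 of 15 stretches (5 consecutive stretches on each of 3 arrays). In a window of 4522 features to each side, that earlier place had the higher intraclass correlation on all 3 arrays around 10 of the 17 kept features, on 2 arrays around 3 and on 1 array around 4. The names below are those of the feature's own row, and the value 1 row earlier is given beside them. Ratios hold no level with which to check the cell line's markers.

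Of the 17 features 0 passed an adjusted p of 0.05 (limma, Benjamini-Hochberg over 39399 features), and of all features 0% passed above the medians and 0% below. A 1-sample test without moderation called 0 members too, and 1 feature above and 6 below over the whole table. The adjusted p ran from 0.059 to 0.997. At an unadjusted p under 0.05 there were 0 members above the median and 2 below, TOP2B and ABCG2, beside 1.4% (550) of all features above and 18.3% (7191) below. The other 15 features, among them all 9 of ABCB1, did not pass even that. Of the member values, 7 of 15, 8 of 16 and 9 of 15 lay within 0.5 of the most repeated value of arrays 1, 2 and 3, beside 39.7%, 36.2% and 38.9% of all features. Of those 7, 8 and 9 values, 4, 5 and 7 were from features of ABCB1 alone. The most repeated value lay 0.57, 0.69 and 0.61 above the median.

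**Figure D1:**
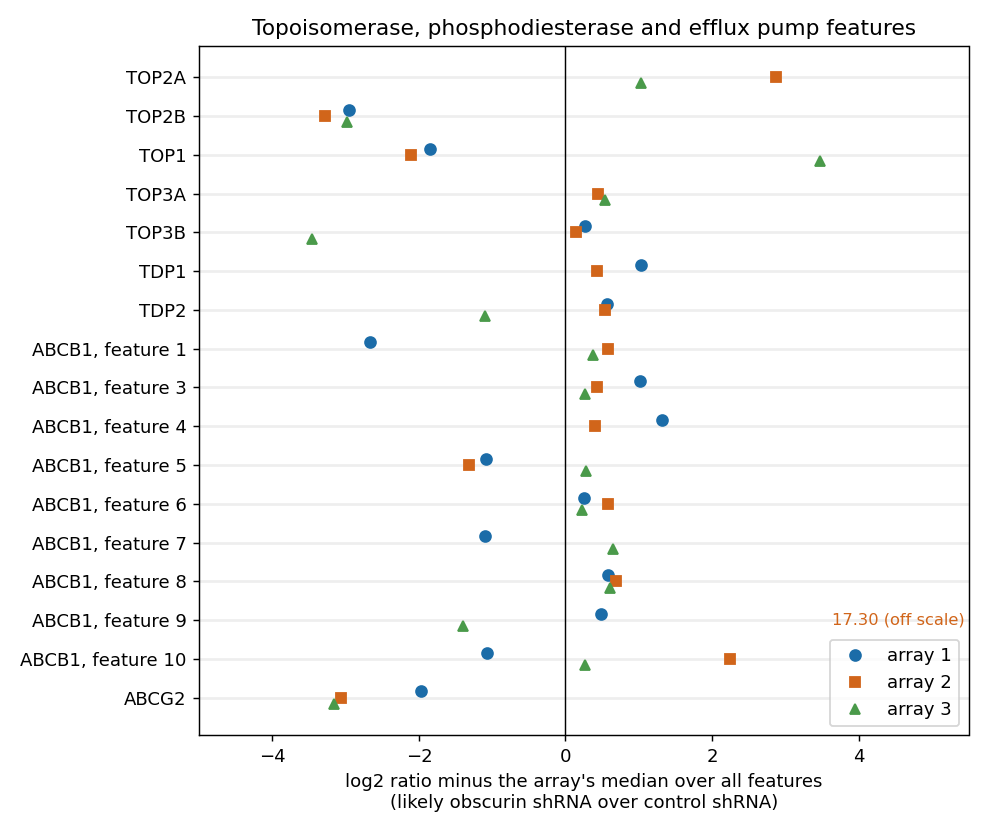
Relative log2 ratio (x axis, log2 scale) of each kept feature (rows) on arrays 1 to 3 (symbols), with the array median at 0. TOP2B and ABCG2 lie below 0 on all 3 arrays and TOP2A above 0 on the 2 arrays that have it; the ABCB1 value of 17.30 on array 2 is beyond the axis and written in.

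TOP2B, the isoform of type II topoisomerase made in dividing and resting cells alike, had relative log2 ratios of -2.96, -3.29 and -2.98 on arrays 1, 2 and 3. All 3 values were low and close together, at -3.08 ± 0.18 (SD, n = 3 arrays), with a 95% interval of -3.91 to -2.25 and an limma adjusted p of 0.059. Such values were common: 9.8%, 7.4% and 13.0% of all features on the 3 arrays were lower still. Fitted over the 23308 features with a value on all arrays, TOP2B passed (limma adjusted p = 0.0336), as did 11.2% of those features below and 0.0472% above, and it passed with each array's zero at its most repeated value (0.0306), beside 7.81% below and 0.00508% above; its adjusted p ran from 0.0306 to 0.254 over 16 alternatives. Taken 1 row earlier, TOP2B had 2.99 on array 1, 1.71 on array 2 and no value on array 3, that is, above the medians and not below. Around TOP2B the intraclass correlation of repeated transcripts was 0.156, 0.046 and 0.104 at the own row and 0.289, 0.346 and 0.201 a row earlier, higher a row earlier on every array. The direction of TOP2B therefore depended on the place from which its value was read.

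TOP2A, the isoform that rises with proliferation, had no value on array 1 and relative log2 ratios of 2.87 on array 2 and 1.03 on array 3. Both values lay above the medians, higher than 97.2% and 91.4% of features. The array 3 value lay within 0.5 of the most repeated value of that array, and the array 2 value did not. The mean was 1.95 ± 1.30 (SD, n = 2 arrays; 95% interval -0.60 to 4.50, limma adjusted p = 0.334), so the interval spans 0. A row earlier, TOP2A had 0.40 on array 2 and 2.72 on array 3, above the medians as well. Around TOP2A the intraclass correlation of repeated transcripts was 0.102, 0.042 and 0.014 at the own row on arrays 1, 2 and 3. It was 0.212, 0.236 and 0.134 a row earlier, higher on every array. TOP2A exceeded TOP2B by 6.16 on array 2 and 4.01 on array 3 at their own rows. A row earlier the pair shared only array 2, where TOP2A at 0.40 was the lower, against 1.71 for TOP2B.

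**Figure D2:**
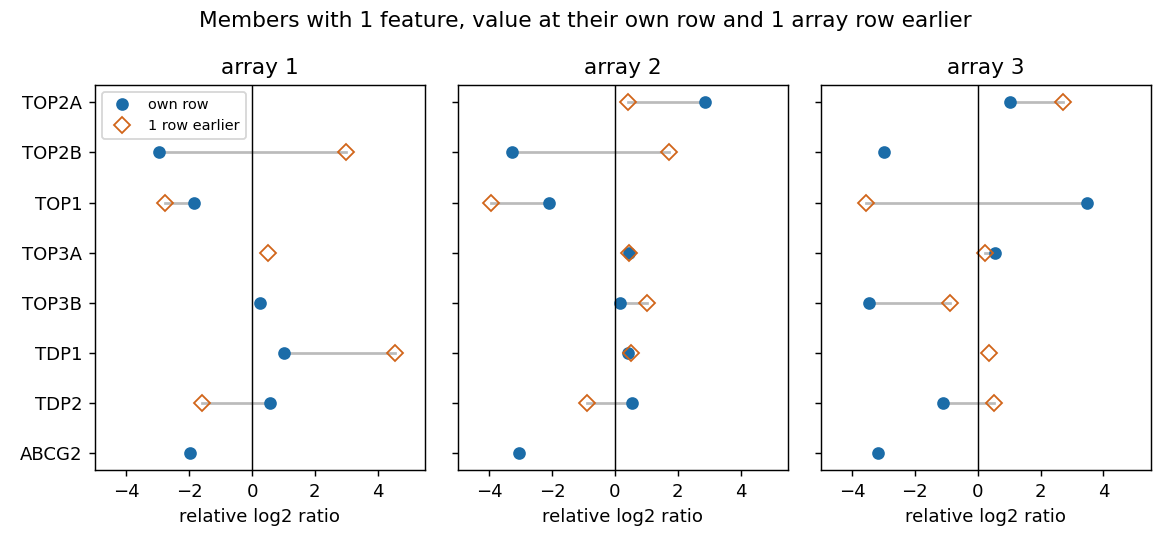
Relative log2 ratio (x axis) of the genes with 1 feature, at the feature's own row (filled circles) and 1 array row earlier (open diamonds), on arrays 1 to 3; a missing symbol is a missing value. TOP2B changes from below to above 0 on arrays 1 and 2, TOP1 from above to below on array 3, and TOP3A keeps nearly the same value.

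The remaining topoisomerases showed no shared direction. TOP1, the type I enzyme that cuts 1 strand and is the target of camptothecins, had -1.85, -2.10 and 3.48 on arrays 1, 2 and 3. Array 3 thus opposed the other arrays, and the mean of -0.16 ± 3.15 (SD, n = 3; limma adjusted p = 0.945) had the widest spread among genes with 1 feature. A row earlier TOP1 was low on every array, at -2.76, -3.95 and -3.54, although the repeated transcripts around it resembled each other more at the own row on arrays 2 and 3.

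TOP3A, which works with the BLM helicase to separate joined DNA molecules, had no value on array 1, 0.45 on array 2 and 0.54 on array 3. Its 2 values lay within 0.5 of the most repeated value of their arrays, and a row earlier TOP3A had 0.50, 0.46 and 0.24 on arrays 1 to 3. TOP3B, which also acts on RNA, had 0.26, 0.15 and -3.46, with array 3 far below the other arrays (mean -1.02 ± 2.12, SD, n = 3, limma adjusted p = 0.552). A row earlier TOP3B had no value on array 1, 1.01 on array 2 and -0.89 on array 3.

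Neither phosphodiesterase stood apart. TDP2, which removes trapped type II enzyme by cutting the tyrosine bond to the 5′ end of DNA, had 0.57, 0.54 and -1.10 on arrays 1, 2 and 3. The mean, 0.00 ± 0.95 (SD, n = 3, 95% interval -1.47 to 1.48, limma adjusted p = 0.997), lay at the array medians. The means of all 39399 fitted features had a median of -0.38. A row earlier TDP2 had -1.60, -0.88 and 0.53, which turns the sign on each array. TDP1, which cuts the bond to the 3′ end left mainly by type I enzyme, had 1.03 on array 1 and 0.43 on array 2 and no value on array 3 (mean 0.73 ± 0.42, SD, n = 2, limma adjusted p = 0.438). A row earlier it was above the medians too, at 4.54, 0.52 and 0.35.

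ABCB1, the P-glycoprotein pump, for which etoposide is a known substrate, offers the only look within these genes at how far features of 1 transcript agree, since its 10 features carry the same transcript accession. Whether they carry the same probe is not given in the sources used here. On array 1 its 9 measured features ran from -2.67 to 1.32 with a median of 0.25. On array 2 its 8 features had a median of 0.58, and ran from -1.32 to 17.30, the highest value of that array and possibly only a bound. On array 3 its 9 features ran from -1.39 to 0.64 with a median of 0.26. The medians thus lay close to the array medians on all 3 arrays, while features of this 1 transcript differed by several log2 units within an array. Of the 9 kept features 6 had a mean above 0 and 3 below, from -0.70 to 5.46. Their limma adjusted p ran from 0.339 to 0.84, and 5 had values on both sides of 0. The split into above and below depended on the zero. With the zero at the most repeated value, the means of 0.57, 0.35 and 0.48 became -0.05, -0.27 and -0.14. The mean of 0.63 became 0.00, and that feature held the most repeated value on arrays 2 and 3. Those of 0.86 and 5.46 stayed above 0, at 0.22 and 4.84. As deposited, the means of -0.57, -0.70 and -0.22 became 0.82, 0.68 and 1.21.

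Averaged over its kept features, ABCB1 had -0.25, 2.61 and 0.16 on arrays 1, 2 and 3, at 0.84 ± 1.55 (SD, n = 3). That mean rested on the 1 value at the top of array 2: without the highest values of each array it was 0.14 ± 0.38. The place mattered here in opposite ways. On array 1 the interquartile range over ABCB1 features was 1.66 at the own row and 0.20 a row earlier, where 7 of 8 features lay within 0.5 of the most repeated value. On array 2 it was 0.65 at the own row and 0.81 a row earlier, and on array 3 0.15 and 1.98. Over all features the interquartile range was 2.68, 2.68 and 2.63 on the 3 arrays.

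**Figure D3:**
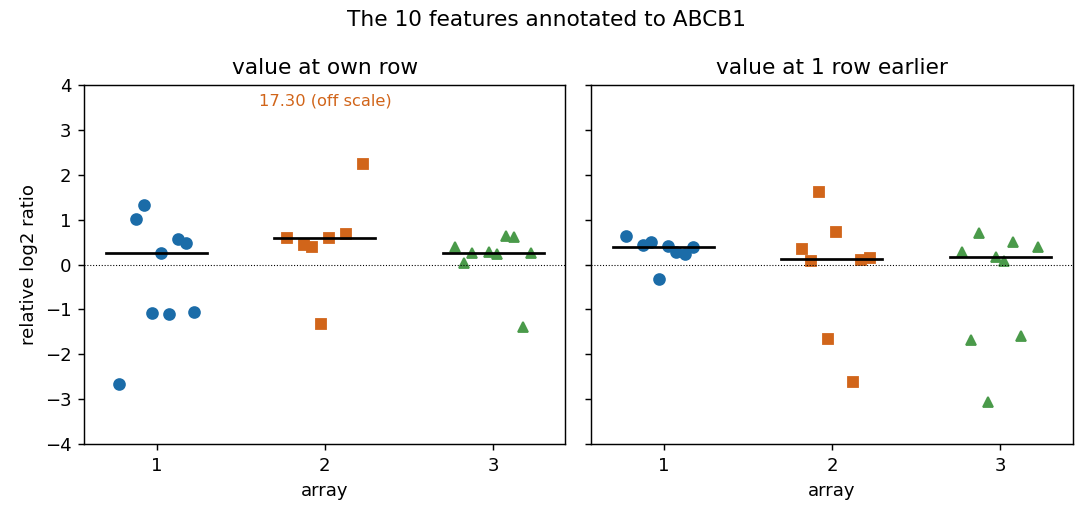
Relative log2 ratio (y axis) of the 10 ABCB1 features on arrays 1 to 3, read at the own row (left) and 1 array row earlier (right); black bars are medians and 17.30 on array 2 is written in. Features draw together a row earlier on array 1 (range -0.31 to 0.63) and at the own row on array 3.

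ABCG2, a pump that exports many drugs and marks side-population cells, was the other low gene, at -1.97, -3.06 and -3.16 on arrays 1, 2 and 3. All values were below the medians, at -2.73 ± 0.66 (SD, n = 3; 95% interval -3.90 to -1.56, limma adjusted p = 0.0719), with 26.4%, 10.0% and 9.9% of features lower. Like TOP2B, ABCG2 passed over the features with 3 values (limma adjusted p = 0.0407) and with the zero at the most repeated value (0.0376), and in no other of 14 alternatives, over which it ran up to 0.261. A row earlier no array had a value, so its direction has no counterpart there. Around ABCG2 the intraclass correlation of repeated transcripts was 0.058, -0.09 and 0.099 at the own row on arrays 1, 2 and 3. It was 0.198, 0.341 and 0.192 a row earlier, higher on every array, as around TOP2B. The place that fitted the repeated transcripts better thus held no value for ABCG2.

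**Figure D4:**
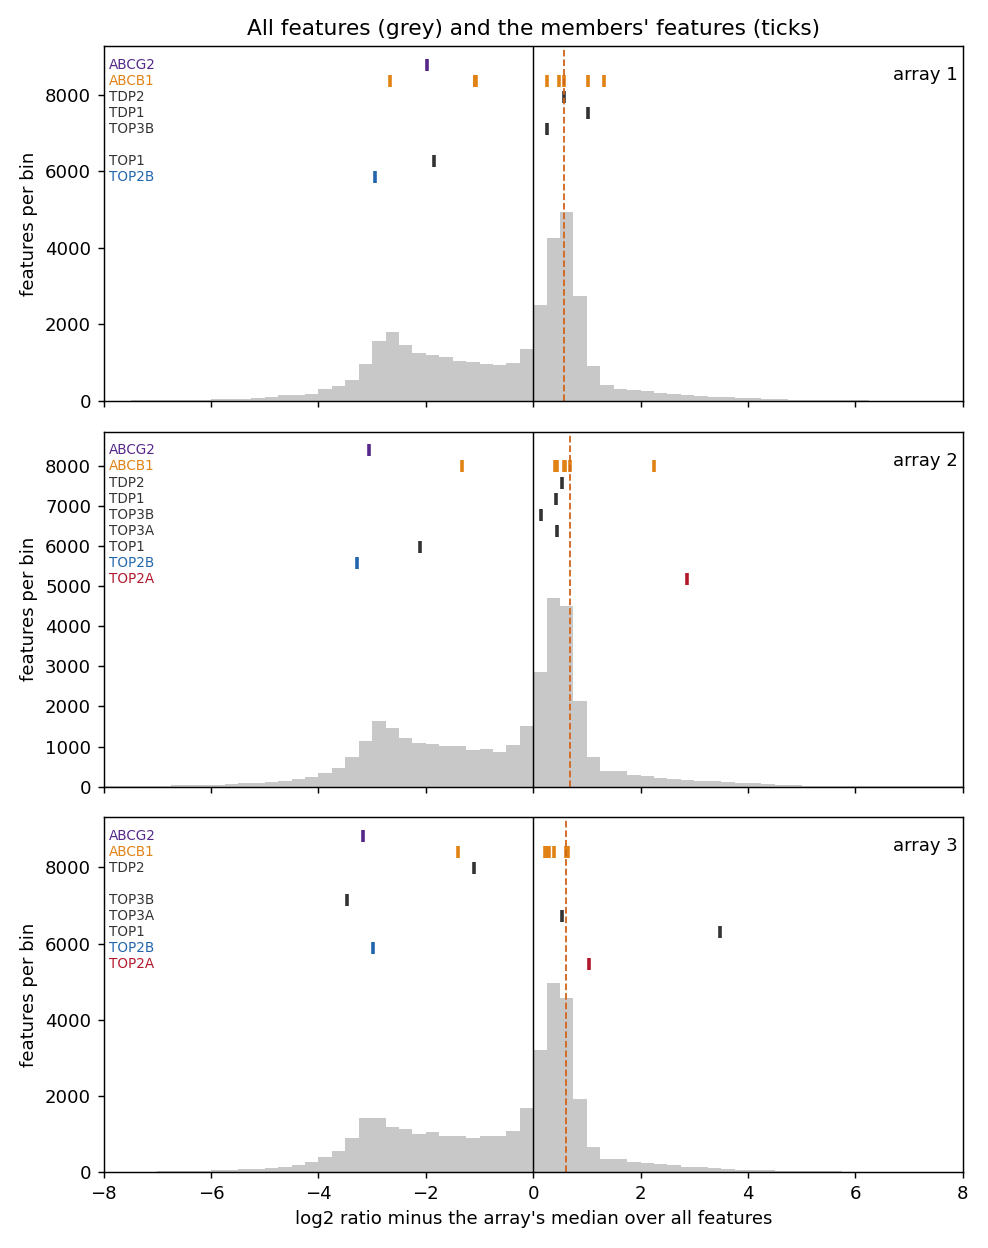
Number of features per bin of 0.25 (y axis) against the relative log2 ratio (x axis) on arrays 1 to 3, with the kept features of these genes as ticks above; the dashed line is the most repeated value and the solid line the median. The ticks of TOP2B stand over the broad lower hump on all 3 arrays; values above 8 are not drawn.

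In order of the mean relative log2 ratio the genes were TOP2A (1.95), ABCB1 (0.84), TDP1 (0.73), TOP3A (0.49), TDP2 (0.00), TOP1 (-0.16), TOP3B (-1.02), ABCG2 (-2.73) and TOP2B (-3.08). The place of ABCB1 rests on its value at the top of array 2, without which its mean of 0.14 stands below TDP1 and TOP3A, and the order would turn round if the ratio ran the other way. In each of the 8 neighbouring pairs the difference of the means was smaller than the larger SD of the pair. This sets each gene's own spread between arrays beside the difference and does not pair the genes by array. Paired by array, TOP2A exceeded ABCB1 by 0.26 on array 2 and 0.87 on array 3 (mean 0.56 ± 0.43, SD, n = 2). The array 2 difference holds the ABCB1 value at the top of that array. The other neighbours were not compared in this way.

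Set against the other groups, the 2 etoposide targets had no common difference. The mean of TOP2A and TOP2B minus that of TOP1, TOP3A and TOP3B was -2.16, 0.29 and -1.16 on arrays 1, 2 and 3, at -1.01 ± 1.24 (SD, n = 3). Minus TDP1 and TDP2 it was -3.75, -0.69 and 0.12, at -1.44 ± 2.04. Minus ABCB1 and ABCG2 it was -1.84, 0.02 and 0.53, at -0.43 ± 1.25. The array 2 value holds the ABCB1 feature at the top of that array; without the highest values it was 1.06 there, and the mean -0.08 ± 1.55. Each mean was smaller than its SD, and array 1, where TOP2A had no value, gave the lowest difference each time. With 3 arrays, a two-sided exact sign-flip test could not go below 0.25, and no p is given.

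Taken singly, TOP2B lay below the group mean on all 3 arrays in each comparison, by a log2 difference of -2.71 ± 0.51 (other topoisomerases), -3.14 ± 1.08 (phosphodiesterases) and -2.13 ± 0.83 (pumps; SD, n = 3 each). TOP2A lay above the group mean on both arrays that had it, by 2.11 ± 1.79, 2.26 ± 0.18 and 2.81 ± 0.40 (SD, n = 2). Single genes did not all follow the group means. On array 3 TOP3B (-3.46) and ABCG2 (-3.16) were lower than TOP2B (-2.98), and TOP1 (3.48) was higher than TOP2A (1.03). On arrays 1 and 2 no other gene's mean was lower than TOP2B, and on array 2 none was higher than TOP2A. Without the highest values of each array the differences from the pumps were -1.78 ± 0.27 for TOP2B and 3.34 ± 1.14 for TOP2A. Read 1 row earlier throughout, the joint differences became positive, at 3.37, 1.68 and 2.36, and they were 2.26, 1.50 and 2.16 with each stretch at its better place. The groups compared there are not the same: ABCG2 had no value, so ABCB1 alone stood for the pumps, and the targets were TOP2B alone on array 1 and TOP2A alone on array 3.

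**Figure D5:**
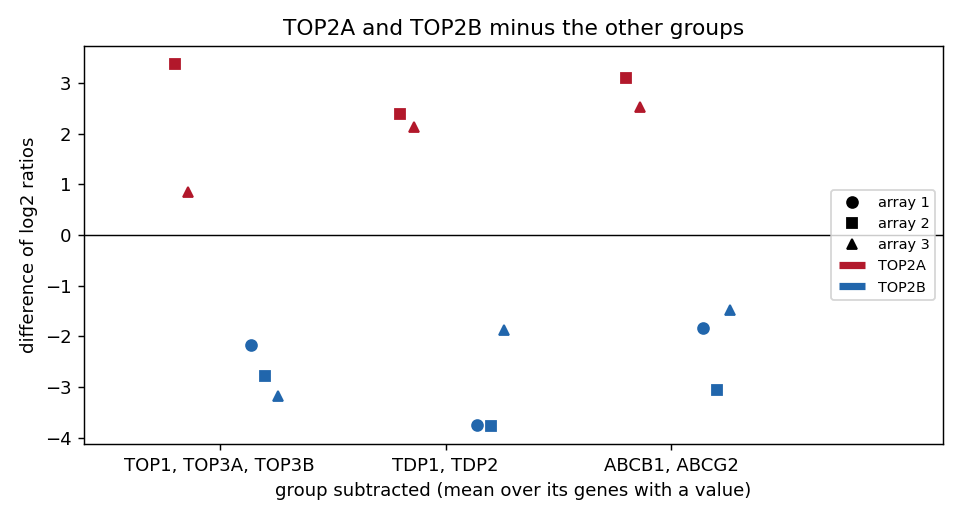
Difference of log2 ratios (y axis) of TOP2A (red) and TOP2B (blue) minus the mean of each other group (x axis), per array (symbols), at the features' own rows. All 6 TOP2A points lie above 0 and all 9 TOP2B points below; TOP2A has no value on array 1, and the pump mean of array 2 includes the ABCB1 value of 17.30.

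Other genes of these pathways gave 0 calls too. Other topoisomerases and partners, such as TOPBP1 and the TOP3A partner RMI1, had 6 features from 6 of 8 genes, 4 above the medians and 2 below (median of the relative log2 ratios 0.21). Genes that process topoisomerase adducts, among them the MRE11 nuclease complex, had 33 features from 10 of 12 genes, 16 above and 17 below (median -0.10). End-joining genes, which rejoin the breaks left by type II enzymes, had 16 features from 7 of 8 genes, 4 above and 12 below (median -1.0). Other ABC transporters had 13 features from 9 of 10 genes, 5 above and 8 below (median -0.11), and genes of etoposide metabolism and conjugation had 27 features from 7 of 10 genes, 9 above and 18 below (median -0.49). Over all 39399 features, 16365 lay above and 23034 below, with a median of -0.38. The 17 member features had 10 above and 7 below, with a median of 0.35. Of these 17, 9 were features of 1 transcript, ABCB1, 6 above and 3 below, so this is no count of genes. Of the genes with 1 feature, TOP2A, TDP1, TOP3A and TDP2 (0.004) lay above and TOP1, TOP3B, ABCG2 and TOP2B below. At an unadjusted p under 0.05 these 5 lists had, of 95 features, 3 above and 13 below, beside the 1.4% above and 18.3% below of all features.

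Basal mammary epithelium markers had 13 features from 4 of 6 genes, 3 above and 10 below (median -1.38), other epithelial markers 15 features from 3 of 4 genes, 11 above and 4 below (0.38), and markers of leukocytes, fibroblasts and endothelium 41 features from 7 of 8 genes, 25 above and 16 below (0.21), with 0 calls in each. These are ratios of 2 cultures and show no level; their part in the values of TOP2B and ABCG2 was not tested. In RNA of whole cultures, fewer cells of a kind and less RNA per cell cannot be told apart.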

How the data were processed

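The authors deposited 1 table with a log2 ratio of both channels for each of 45220 features on 3 arrays; how the arrays were scanned and normalized is not given in the sources used here. Base 2 was inferred: the highest value of each array lay 16.61 above the most repeated value, which is the log2 of 100000. Features were named by the platform annotation, with symbols checked by Entrez identifier against GRCh38.p14 (31291 of 31332 matched, 0 changed); 93 features with several symbols and 13795 with none carried no name. Each array was set to 0 at its median over all features. The 39399 features with at least 2 values were fitted with limma 3.58.1 in R 4.3.3 (intercept, eBayes, two-sided test against 0, Benjamini-Hochberg, threshold 0.05). The test was checked on simulated data. No p was computed over groups of genes. The members, the lists and the tests were chosen with earlier results of these data known; the 4522-feature window was added after the values were seen. All 10 members, and of each list only features past the threshold, were to be named; TOPBP1, RMI1 and MRE11 stand as examples of list members without values. Arrays limit the precision by their number, and whether replicates were separate cultures is stated only as "independent", so p-values measure the spread between these arrays. The result of 1 check of the labels is not reported here.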

Additional observations from a re-analysis of the deposited data

How the results depend on the processing

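No paired analysis was possible because both cell lines share each array and there is 1 group of ratios. All 17 other settings were run. The counts of 0 features above and 0 below became 2 and 3078 with each array's zero at its most repeated value, 11 and 2602 over features with values on all 3 arrays, and 1 and 6 by the test without moderation. Under the first 2 of these settings 2 member features (TOP2B and ABCG2) passed below, of 17 and of 12. In the first, 7 of 95 features of the other pathway genes passed below, beside 7.81% of all features. In the second, where the 5 lists had only 2, 17, 9, 7 and 15 features and not 95, 4 did, beside 11.2% of all features. These 4 were 1 of 9 end-joining features (DCLRE1C) and 3 of 15 of etoposide metabolism, all of the gene GSTP1. The other lists had 0. In the first setting, 4 of the 7 were features of GSTP1 too. Of members and other pathway genes 0 passed above, beside 0.00508% and 0.0472% of all features. Under the other settings the counts of members and other pathway genes stayed at 0, also without any 1 array. The difference of TOP2A and TOP2B from the other topoisomerases, the phosphodiesterases and the pumps was 3.37, 1.68 and 2.36 with all values 1 row earlier, and 2.26, 1.50 and 2.16 with each stretch at its better place, against -1.01, -1.44 and -0.43 as reported. Over features with 3 values, which leaves out TOP2A, TOP3A and TDP1, it was -2.49 from the other topoisomerases, -3.08 from the phosphodiesterases and -2.15 from the pumps. There TOP2B alone stood for the targets and TDP2 alone for the phosphodiesterases. Without 1 array the difference ran from -2.58 to -0.43, from -3.76 to -0.31 and from -2.48 to 0.21. TOP2A and TOP3A have 2 values each and drop out without array 2 or array 3. TDP1 has 2 values and drops out without array 1 or array 2. Zero points moved single genes. As deposited, TOP2A had 3.28, ABCB1 2.23, TDP1 2.11, TOP3A 1.83, TDP2 1.39, TOP1 1.23, TOP3B 0.37, ABCG2 -1.35 and TOP2B -1.69. With the zero at the most repeated value they had, in the same order, 1.30, 0.22, 0.10, -0.15, -0.62, -0.78, -1.64, -3.36 and -3.70. TOP2A stayed above 0 in all 14 alternatives that gave it a value, TDP1 in 14 of 14, and ABCG2 below 0 in 15 of 15. Several of these alternatives changed only the test or the features fitted, so the means of these genes could not move there. The 2 that read values from an earlier row gave ABCG2 no value. TOP2B was below 0 in 15 of 17, and above in the 2 that read values from an earlier row.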
